A study of Homo sapiens with 4 samples.

Results

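The genes described here encode the cyclin-dependent kinases (CDKs) that act on RNA polymerase II, a pair of their cyclins, and a chromatin reader of the BET family. They are 9 genes chosen by name (CDK7, CDK8, CDK9, CDK12, CDK13, CDK19, CCNT1, CCNT2 and BRD3), out of 23577 genes with usable values, and all of them were found. BRD3 is the BET gene among the 9. The study profiled poly(A) RNA of RKN, SKLMS1, SKN and SKUT1, established human cell lines of leiomyosarcoma, a cancer with smooth muscle features. There were 4 libraries, 1 from an untreated culture of each line. No genotype is given in the labels, every line is its own group, and no line is a normal control.

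RNA polymerase II carries a long tail of repeats whose phosphorylation steers it through the transcription cycle. CDK7, with cyclin H (CCNH) and the assembly factor MNAT1, forms the kinase trimer of the general factor TFIIH and phosphorylates the tail at the start of a gene. It also activates cell cycle CDKs. CDK9 with cyclin T1 or T2 (CCNT1, CCNT2) forms P-TEFb, which releases the paused polymerase into elongation, and BET proteins bind acetylated histones and help to bring P-TEFb to chromatin. CDK12 and CDK13 pair with cyclin K (CCNK) and sustain elongation, and CDK8 or its paralog CDK19 pairs with cyclin C (CCNC) in the kinase module of Mediator.

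The unit is FPKM, which divides a gene's fragments by transcript length and by library size, so levels of different genes can be set side by side within a library. Comparisons used the 13713 genes, termed kept genes, whose FPKM reached 1 in some line, and all 9 genes described here were among them. Differences between lines are on the log2(FPKM + 1) scale, where 1 is a 2-fold difference. In bulk RNA, fewer cells of a type and less RNA per cell cannot be told apart. With 1 library per line, a difference has neither a replicate check nor a test. Estimated totals were 24300000 to 33400000 reads. With them, the lowest of the 36 values, CCNT2 in SKUT1, stood for about 105 reads per kilobase, a counting error of 9.76% on a transcript of that length. Of 8 smooth muscle markers, 6 (RKN), 6 (SKLMS1), 4 (SKN) and 7 (SKUT1) reached an FPKM of 1, with a summed level from 97.8 in SKN to 6294 in SKUT1. ACTA2 ran from 1.37 to 1085 and TAGLN from 5.82 to 3816 in these lines, while DES was at most 1.10 and MYH11 at most 1.15. The 5 epithelial markers summed to 54.8 in RKN and up to 549 in SKN, mostly keratins, with EPCAM at most 1.80. The 5 leukocyte markers summed to 5.60 in RKN and up to 77.3 in SKUT1, nearly all of it CD68, with PTPRC at most 0.213. The 5 endothelial markers summed to 0.0693 in RKN and up to 40.1 in SKUT1, with TEK at 39.6 in SKUT1, KDR at 4.91 in SKN and PECAM1 at most 0.115. The part of these markers in the results was not tested.

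Promoters are shown here for the subunits of the kinase trimer of TFIIH, which shared 1 order of the lines, and for those of P-TEFb, which shared their 2 highest lines. CCNH and MNAT1 are not among the 9 genes, and CDK12 and BRD3, whose promoters are not shown, had the same 2 highest lines as P-TEFb. Each stretch is 250 bases upstream of the start site of the RefSeq entry listed at the head for that gene, in assembly GRCh38.p14. They are chr5:69234636-69234885 (plus strand) for CDK7, chr5:87412931-87413180 (minus) for CCNH and chr14:60734511-60734760 (plus) for MNAT1. For P-TEFb they are chr9:127785784-127786033 (plus) for CDK9, chr12:48716708-48716957 (minus) for CCNT1 and chr2:134918572-134918821 (plus) for CCNT2. Capitals mark CACGTG, the palindromic E-box, and CGGAAG, a core of ETS factor sites, both searched on both strands.
CDK7: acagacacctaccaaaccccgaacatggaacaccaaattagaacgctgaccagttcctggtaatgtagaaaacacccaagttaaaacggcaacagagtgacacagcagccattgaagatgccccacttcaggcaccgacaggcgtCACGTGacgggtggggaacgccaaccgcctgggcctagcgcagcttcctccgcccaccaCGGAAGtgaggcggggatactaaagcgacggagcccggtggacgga
CCNH: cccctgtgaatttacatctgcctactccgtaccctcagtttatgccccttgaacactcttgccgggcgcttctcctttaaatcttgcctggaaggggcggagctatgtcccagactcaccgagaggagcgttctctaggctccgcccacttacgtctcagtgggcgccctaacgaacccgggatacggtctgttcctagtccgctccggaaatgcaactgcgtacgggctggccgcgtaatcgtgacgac
MNAT1: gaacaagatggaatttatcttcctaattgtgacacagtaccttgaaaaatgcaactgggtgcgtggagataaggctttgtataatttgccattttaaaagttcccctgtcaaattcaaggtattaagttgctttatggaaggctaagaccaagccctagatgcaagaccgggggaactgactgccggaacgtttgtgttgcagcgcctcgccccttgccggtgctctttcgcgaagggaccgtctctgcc
CDK9: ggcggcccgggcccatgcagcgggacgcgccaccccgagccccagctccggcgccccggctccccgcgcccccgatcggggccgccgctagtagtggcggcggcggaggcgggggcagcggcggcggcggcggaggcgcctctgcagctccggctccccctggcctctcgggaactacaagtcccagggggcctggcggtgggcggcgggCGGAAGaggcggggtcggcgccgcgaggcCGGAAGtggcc
CCNT1: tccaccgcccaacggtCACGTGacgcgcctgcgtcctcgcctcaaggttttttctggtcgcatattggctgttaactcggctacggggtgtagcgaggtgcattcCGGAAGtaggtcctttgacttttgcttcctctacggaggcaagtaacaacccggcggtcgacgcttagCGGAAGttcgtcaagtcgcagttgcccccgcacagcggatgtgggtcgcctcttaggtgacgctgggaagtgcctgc
CCNT2: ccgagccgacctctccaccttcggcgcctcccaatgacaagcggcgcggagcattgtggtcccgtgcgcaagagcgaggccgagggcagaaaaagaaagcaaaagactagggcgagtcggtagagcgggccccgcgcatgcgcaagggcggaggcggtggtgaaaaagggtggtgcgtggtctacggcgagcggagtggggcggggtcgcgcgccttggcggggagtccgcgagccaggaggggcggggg

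All 9 genes had an entry in the promoter table. The E-box letters stood in CDK7 and CCNT1 of the stretches shown and also in that of CDK8, so in 3 of the 9 genes, against 6.49% of 27305 promoters of the same length. CGGAAG was found in CDK7, CDK9, CCNT1 and CDK13, against 16.8% of promoters. Neither was found in CCNH, MNAT1 or CCNT2. CCNT2 held the NRF1 palindrome, as did 1.13% of promoters. No member held TATAAA (11.1% of promoters), and 8 of the 9, all but CDK12, held GGGCGG, the GC box (42.3%). CCAAT stood in 3 of the 9, CDK19, CCNT1 and CCNT2, against 33.0% of promoters. None of these letters was thus shared by the whole trimer or by all P-TEFb genes except the GC box in CDK9, CCNT1 and CCNT2. The shares are over all 27305 promoters, whether or not the gene was expressed in these lines, and none is given over kept genes. A match is a description of the letters in this window and does not show that a factor binds.

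Across the 4 lines the 9 genes were expressed at moderate and similar levels. None was listed at 0, and the values ran from 4.32 for CCNT2 in SKUT1 to 47.5 for CDK7 in SKN. CDK7 and CDK9 were the pair with the highest levels in every line, between 20.3 and 47.5, while the other 7 genes lay between 4.32 and 13.5. CDK9 led in RKN (26.1 against 24.3 for CDK7), and CDK7 led in the other 3 lines. The place at the bottom varied, with CDK8 lowest in RKN (6.94), CCNT2 in SKLMS1 (4.80) and SKUT1 (4.32), and CDK19 in SKN (5.72). Set among all kept genes of a line, the median of the 9 stood above 55.5% of genes (RKN), 47.6% (SKLMS1), 55.5% (SKN) and 53.1% (SKUT1). Kept genes include some below an FPKM of 1 in that line. Among genes that reached 1 in the line itself, the shares were 46.8% (RKN), 38.8% (SKLMS1), 46.8% (SKN) and 44.1% (SKUT1).

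**Figure D1:**
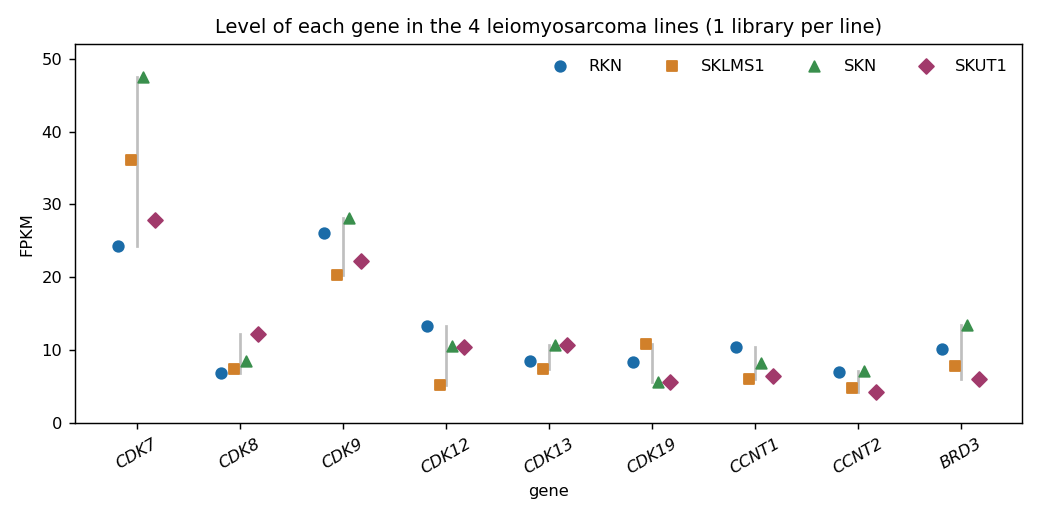
FPKM of the 9 genes (x axis) in the 4 lines, with 1 point per library and a grey bar from the lowest to the highest line. CDK7 and CDK9 lie between 20.3 and 47.5, and every other gene lies at or below 13.5.

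The differences between lines were small beside those of all kept genes. Of the 9, 2 had their highest and lowest line at least 2-fold apart, CDK12 and BRD3, where 67.2% of all kept genes did. None of the 9 lay 2-fold away from the mean of the other 3 lines in any line, in either direction, where 51.8% of kept genes did in at least 1 line. The shares of kept genes that far above the mean of the other lines were 11.6% (RKN), 10.7% (SKLMS1), 9.97% (SKN) and 17.9% (SKUT1), and the shares that far below it were 16.6%, 9.83%, 10.8% and 13.1% in the same order, beside 0 of the 9 genes in each. CDK12 in SKLMS1 came closest, at -0.98. With 0.1 added in place of 1, 1 of the 9 was 2-fold lower in SKLMS1, and no share of kept genes is given for that setting. The median range of the 9 was 0.74, from 0.45 for CDK9 to 1.19 for CDK12, against a median of 1.31 over all kept genes. All 9 ranges were below that median. Kept genes include genes below an FPKM of 1 in some lines, while the 9 were at 4.32 or more in every line. No share is given over genes that reached 1 in every line. CDK9 and CDK13 were the steadiest, as 5.49% and 5.80% of kept genes had a smaller range than they did. On the TPM scale CDK13 and CDK8 had the smaller ranges (0.37 each, from 0.74 for CDK8 as deposited) and CDK9 one of 0.68. Members just below the 2-fold line were CDK7 at 0.94 and CDK19 at 0.82, and just above it was BRD3 at 1.03. With the columns rescaled to the same sum (TPM), 5 of the 9 had such a range, as CDK19 (1.17), CCNT1 (1.10) and CCNT2 (1.08) crossed the line, beside 74.9% of kept genes. With any 1 line left out 1 of the 9 did, beside 46.3 to 56.7% of kept genes.

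**Figure D2:**
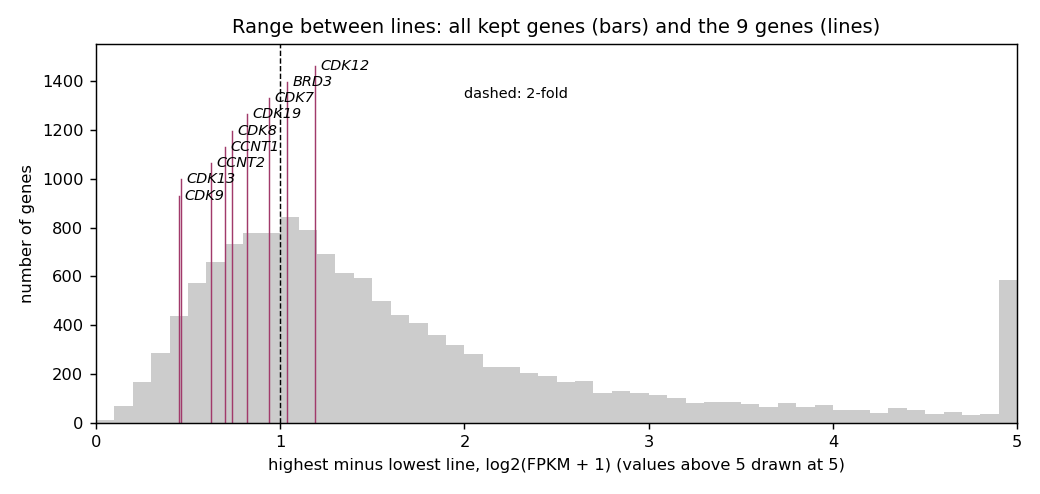
Number of genes (y axis) by the difference between the highest and lowest line on the log2(FPKM + 1) scale (x axis), for all 13713 kept genes as bars and the 9 genes as named lines. CDK12 (1.19) and BRD3 (1.03) lie right of the dashed 2-fold line, and the other 7 lie left of it.

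CDK7, the kinase of the TFIIH trimer, was 24.3 (RKN), 36.1 (SKLMS1), 47.5 (SKN) and 27.9 (SKUT1). SKN stood highest, at 1.96 times the FPKM of RKN, and without SKN the log2 range fell from 0.94 to 0.55. Its partners, named here for that role outside the rule for list genes, ranked the lines in the same way. CCNH was 26.1 (RKN), 41.6 (SKLMS1), 46.0 (SKN) and 29.3 (SKUT1). MNAT1 was 27.7 (RKN), 43.4 (SKLMS1), 66.4 (SKN) and 31.3 (SKUT1). All 3 trimer genes thus followed the order SKN, SKLMS1, SKUT1, RKN, which 3.6% of kept genes followed. The median differences of chromosome 5 (CDK7 and CCNH) and chromosome 14 (MNAT1), given below, had that order too. When the columns were rescaled to the same sum (TPM) or quantile normalized, RKN and SKUT1 changed places in this order for all 3 genes together, so that the genes still shared 1 order, held by 4.27% of genes on the TPM scale and 4.35% after quantile normalization. This order was picked out after its values were seen. In the rest of TFIIH, 6 of 7 subunits were measured. None of them was 2-fold from the mean of the other lines (51.8% of kept genes in at least 1 line). GTF2H3 was 13.1 in RKN, 14.4 in both SKLMS1 and SKUT1 and 24.4 in SKN. The helicase gene ERCC3 had another order, with 30.5 in RKN and 16.1 in SKLMS1.

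CDK9, the kinase of P-TEFb, was 26.1 (RKN), 20.3 (SKLMS1), 28.1 (SKN) and 22.3 (SKUT1). RKN and SKN were its highest lines, but the whole range was 1.39-fold in FPKM. CCNT1, its major cyclin, was 10.5 (RKN), 6.08 (SKLMS1), 8.27 (SKN) and 6.47 (SKUT1), and CCNT2 was 7.06, 4.80, 7.20 and 4.32 in the same lines. In both cyclin genes RKN and SKN were again above the other lines, with a range of 1.72-fold for CCNT1 and 1.67-fold for CCNT2. The log2 range of CCNT1 was 0.39 without RKN, against 0.70 with it. BRD3 shared this split and was 10.2 (RKN), 7.92 (SKLMS1), 13.5 (SKN) and 6.06 (SKUT1). With CDK12, 5 of the 9 genes had RKN and SKN both above SKLMS1 and SKUT1, where 17.5% of all kept genes did. The split was noticed in the values themselves. For CDK12 it rested on 10.6 in SKN against 10.5 in SKUT1, a gap smaller than the counting error of either value.

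The split of P-TEFb and BRD3 was about as common among the pathway genes as among all kept genes. It was seen in 13 of 67 measured pathway genes (19.4%). BRDT, the BET gene of the testis, was listed at 0 in every line, and BRD2 was listed at 0 in 3 lines and at 0.720 in SKN. An exact 0 can be a failed estimate in this table, so nothing is drawn from it for BRD2. The inhibitory complex that holds P-TEFb inactive did not show the split. HEXIM1, the inhibitor, was 19.7 in RKN and 17.5 in SKUT1, with 12.3 in SKLMS1 and 10.0 in SKN, and LARP7, the protein that stabilises its small nuclear RNA, lay between 24.3 and 28.7. HEXIM2, a relative of HEXIM1, was 5.77 (RKN), 4.82 (SKLMS1), 3.47 (SKN) and 2.65 (SKUT1). None of the 4 genes of that complex was 2-fold from the mean of the other lines, where 51.8% of kept genes were in at least 1 line.

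CDK12 was the gene with the widest range. It was 13.4 (RKN), 5.30 (SKLMS1), 10.6 (SKN) and 10.5 (SKUT1). SKLMS1 stood alone at the bottom, at 0.98 below the mean of the other lines on the log2 scale. The range rested on that library, as it was 0.32 without SKLMS1. CDK13 was 8.57 (RKN), 7.51 (SKLMS1), 10.7 (SKN) and 10.7 (SKUT1), and SKLMS1 was again the lowest line, with a range of 1.43-fold. The shared partner CCNK did not follow, with 36.1 in SKLMS1 as its highest value and 21.9 in SKN as its lowest. Over the 2-fold line, CDK12 separated RKN from SKLMS1, where 29.2% of kept genes were that far apart. BRD3 separated SKN from SKUT1, where 33.5% of kept genes were. The range of BRD3 fell to 0.67 without SKN and to 0.70 without SKUT1. No member was 2-fold apart in the other 4 pairs of lines, for which the shares of kept genes were 28.8% for RKN and SKN, 40.7% for RKN and SKUT1, 23.6% for SKLMS1 and SKN and 33.2% for SKLMS1 and SKUT1.

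The Mediator kinases CDK8 and CDK19 exchanged places between lines. CDK8 was 6.94 (RKN), 7.41 (SKLMS1), 8.59 (SKN) and 12.2 (SKUT1). CDK19 was 8.39 (RKN), 10.9 (SKLMS1), 5.72 (SKN) and 5.73 (SKUT1). CDK19 was the higher of the pair in RKN (1.21-fold) and SKLMS1 (1.47-fold), and CDK8 was the higher in SKN (1.5-fold) and SKUT1 (2.13-fold). The range of CDK8 rested on SKUT1 (0.27 without it, against 0.74), and that of CDK19 was 0.48 without SKLMS1. The sum of the pair moved less, from 14.3 in SKN to 18.3 in SKLMS1, a range of 1.28-fold. CCNC, their cyclin, was 47.2 in SKLMS1 and 24.8 to 25.7 in the other lines, so that it was highest in the line where CDK19 was highest. It was lowest in RKN, where CDK19 was second. Both genes lie on chromosome 6, whose other kept genes also had their highest median difference in SKLMS1 (0.10). MED12, which activates the kinases, lay between 4.82 and 6.6. MED13L, a linker of the module to Mediator, was 13 in RKN and 6.53 in SKLMS1, and MED12L had no FPKM of 1 in any line. None of the 4 measured module genes beside the kinases was 2-fold from the mean of the other lines (51.8% of kept genes in at least 1 line).

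Within the other pairs the balance was steadier than for CDK8 and CDK19, more so for the cyclins T than for CDK12 and CDK13. CCNT1 was above CCNT2 in every line, by 1.15-fold in SKN to 1.5-fold in SKUT1. CDK12 was 1.56 times CDK13 in RKN, the ratio was near 1 in SKN (0.985) and SKUT1 (0.980), and CDK12 was 0.706 times CDK13 in SKLMS1. The balance of CDK12 and CDK13 thus spanned 1.02 on the log2 scale, that of CDK8 and CDK19 1.47 and that of the cyclins 0.33. These ratios do not change when a whole column is rescaled, apart from a small effect of the added 1 on the log2 scale.

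**Figure D3:**
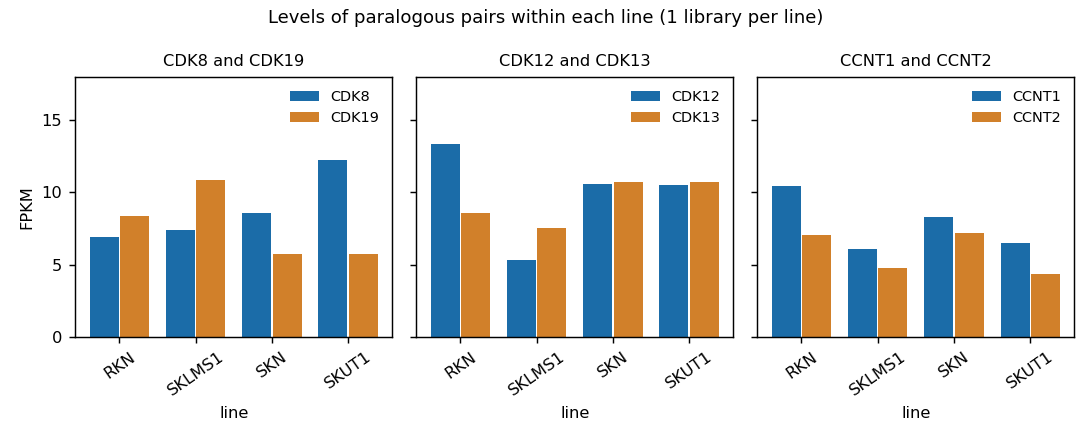
FPKM (y axis, from 0) of the paralogous pairs in each line, 1 library per bar. CDK19 exceeds CDK8 in RKN and SKLMS1 and CDK8 exceeds CDK19 in SKN and SKUT1, while CCNT1 exceeds CCNT2 in all 4 lines.

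For some genes the differences resembled those of the chromosome on which they lie. For each gene the median difference of the other kept genes of its chromosome was taken, with chromosomes from RefSeq. CDK8, on chromosome 13, differed from the mean of the other lines by -0.36 in RKN, -0.25 in SKLMS1 and 0.62 in SKUT1, and hardly at all in SKN. The median of the other 222 genes of chromosome 13 was -0.58 (RKN), -0.35 (SKLMS1), 0.01 (SKN) and 0.75 (SKUT1). The 20 kept genes nearest to CDK8 had medians of -0.19, -0.33, 0.06 and 0.09 in the same order. In SKUT1, 10 of these 20 were below the mean of the other lines, and the median over all kept genes was -0.03 there. CDK7, on chromosome 5, had -0.56 (RKN), 0.17 (SKLMS1), 0.69 (SKN) and -0.30 (SKUT1), beside chromosome medians of -0.41, 0.18, 0.27 and -0.19. CCNH lies on chromosome 5 too, and had -0.54, 0.33, 0.52 and -0.32. MNAT1 lies on chromosome 14, whose median was -0.37 (RKN), 0.06 (SKLMS1), 0.41 (SKN) and -0.18 (SKUT1), beside -0.68, 0.16, 0.96 and -0.45 for the gene.

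Of the 9 genes, 3 (CDK7, CDK8 and CDK12) ranked the lines exactly as their chromosome's median did, as did 6.76% of all kept genes with a chromosome. For CDK12 the medians of chromosome 17 were far smaller than the gene's own differences, at -0.20 in SKLMS1 beside -0.98. Differences of the other 6 genes did not follow that order. CDK9 and BRD3, both on chromosome 9, had chromosome medians between -0.10 and 0.06, while BRD3 itself ran from -0.68 in SKUT1 to 0.70 in SKN. Counted line by line, 25 of the 36 differences had the sign of the chromosome median (69.4%), against 59.2% over the 12369 kept genes with a chromosome. In all 4 lines together the sign matched for 1 of the 9, CDK7, and for 14.6% of those kept genes. The part of the chromosome in the genes' differences was not tested.

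**Figure D4:**
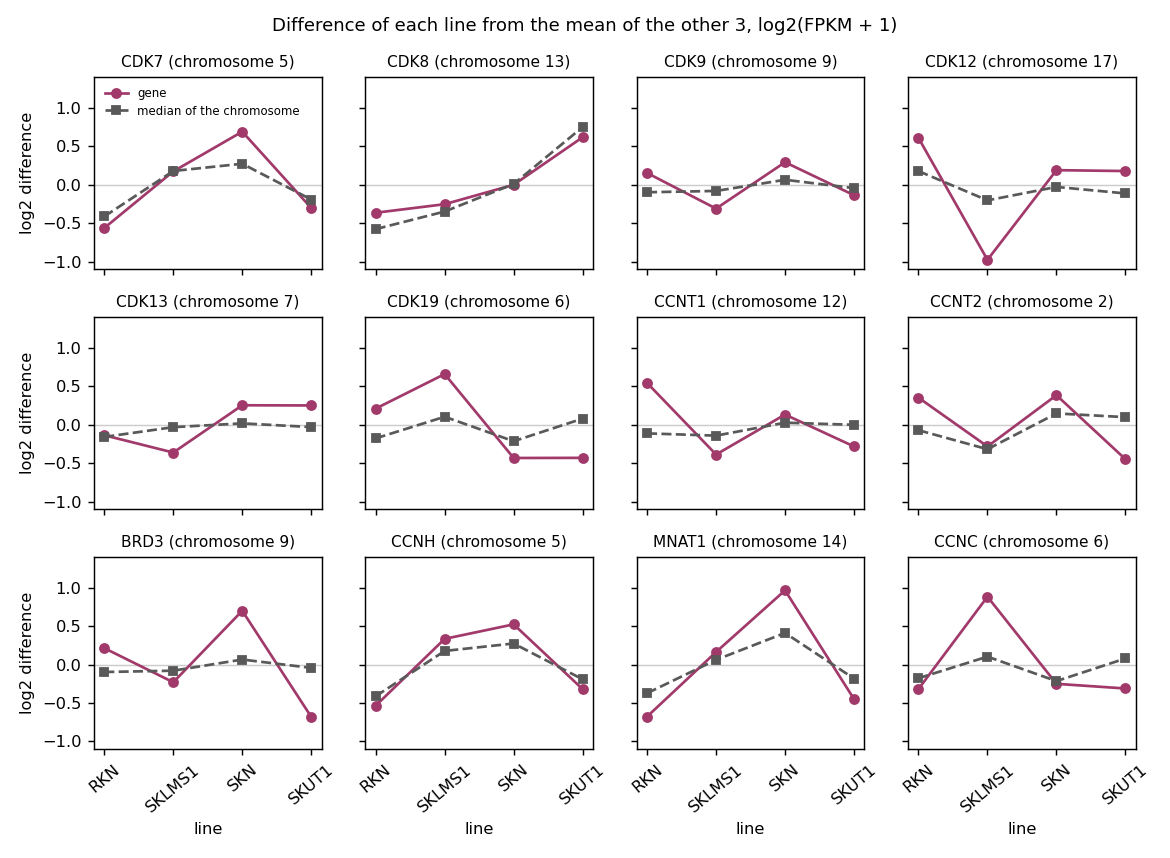
Difference of each line from the mean of the other 3 (y axis, log2) for the 9 genes, CCNH, MNAT1 and CCNC, as circles, and for the median of the other kept genes of the same chromosome, as squares, in the 4 lines (x axis). The 2 curves rank the lines alike for CDK8 (-0.36 and -0.58 in RKN, 0.62 and 0.75 in SKUT1). BRD3 moves far from the flat median of chromosome 9.

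The genes most like the 3 members of widest range were sought among the 9598 genes whose FPKM reached 1 in every line, by the root mean square difference of profiles centred over the 4 lines. For CDK12 they were TYW3, CCDC93 and DHX15 (0.048 each on the log2 scale). For BRD3 they were PNRC1 (0.016), RPL18 (0.025) and ZFAND1 (0.035). For CDK7 they were MTRR (0.031), SMIM15 (0.037) and DNAL1 (0.043). With 4 lines such likeness is common, as 31 genes lay within 0.1 of CDK12, 41 of BRD3 and 43 of CDK7.

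The wider transcription machinery varied more than the 9 genes in some complexes. Of 67 measured genes in 11 lists of polymerase, elongation and CDK genes, 28 had a range of at least 2-fold (41.8%, against 67.2% of all kept genes), and their median range was 0.94. In any line, 16 of the 67 were 2-fold from the mean of the other lines, where 51.8% of kept genes were. Among 10 further CDKs and cyclins tied to transcription, CCNL2, a splicing-linked cyclin, was the 1 gene 2-fold from the other lines, with 18.7 in SKUT1 and 37.2 to 45.5 elsewhere. CDK10 stayed between 13.5 and 18.2. CDK11A and CDK11B are near-identical copies whose reads the counting could split, so CDK11A, at 2.13 to 3.47, is uncertain.

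In the super elongation complex, which works with P-TEFb, 2 of 9 genes were 2-fold lower in RKN (16.6% of kept genes) and 2 were 2-fold higher in SKUT1 (17.9%). They were the elongation factor gene ELL2 (0.842 (RKN), 13.6 (SKLMS1), 22.8 (SKN) and 27.8 (SKUT1)) and the acetyl-lysine reader gene MLLT3 (0.0458, 0.491, 2.24 and 3.16). ELL2 was also 2-fold higher in SKN. These calls in SKN and SKUT1 rest on the low RKN value that enters the mean of the other lines. The scaffold gene AFF1 and EAF1 had ranges under 2-fold. Of the pausing factors, 2 of 5 measured DSIF and NELF genes were 2-fold lower in SKUT1 (13.1% of kept genes). They were NELFCD (23.2 against 55.4 to 80.2) and NELFA (7.60 against 12.3 to 20.3). SUPT4H1 and NELFB ranged less than 2-fold.

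In the PAF1 complex with SPT6, which travels with elongating polymerase, 2 of 7 genes were 2-fold lower in SKLMS1 (9.83% of kept genes). They were CTR9 (8.86 against 17.2 to 24.1) and SUPT6H (12.9 against 20.6 to 38.8). RTF1 was 2-fold higher in RKN (34.6) and 2-fold lower in SKN (8.54), as were 11.6% and 10.8% of kept genes. The narrowest were WDR61 (51 to 68.4) and CDC73 (7.93 to 13.6). Of 12 polymerase II subunits, POLR2A, the large subunit that carries the tail, was 37.4 (RKN), 14.0 (SKLMS1), 24.5 (SKN) and 50.7 (SKUT1), which was 2-fold lower in SKLMS1 and 2-fold higher in SKUT1. POLR2H was 163 in RKN and 42.4 in SKUT1, the former 2-fold higher and the latter 2-fold lower than the other lines, and POLR2D was 2-fold higher in RKN (38.9). Of the 12, 2 were thus 2-fold higher in RKN (11.6% of kept genes) and 1 was 2-fold lower in SKLMS1 (9.83%). In SKUT1, 1 was 2-fold higher (17.9%) and 1 was 2-fold lower (13.1%). POLR2G and POLR2J were the narrowest of the subunits, with FPKM ranges of 1.39-fold and 1.37-fold. Of 6 phosphatases of the tail and their relatives, CTDSPL was 2-fold lower in SKLMS1 (4.49 against 6.46 to 13.2) and CTDSP2 2-fold higher in SKUT1 (50.7). The shares of kept genes for these calls were 9.83% and 17.9%. SSU72 (1.69-fold in FPKM) and RPAP2 (1.73-fold) ranged less.

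Cell cycle CDKs were the list with the widest spread. All 4 had a range of at least 2-fold, as did 67.2% of all kept genes, with a median of 1.67. CDK1 was 25.7 in SKUT1 against 71.4 to 102 elsewhere, and CDK2 was 23.3 in SKUT1 against 38.7 to 63.0. Both were 2-fold lower in SKUT1, as were 13.1% of kept genes. CDK4 fell short of that rule there, at 63.9 against 97.4 to 147. CDK6 was 0.164 in RKN and lay at 12.1 to 14.2 elsewhere. It lay 2-fold below the other lines in RKN and, since RKN enters each other mean, 2-fold above in the other 3. The 6 CDKs among the 9 genes had differences in SKUT1 from -0.43 for CDK19 to 0.62 for CDK8.

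**Figure D5:**
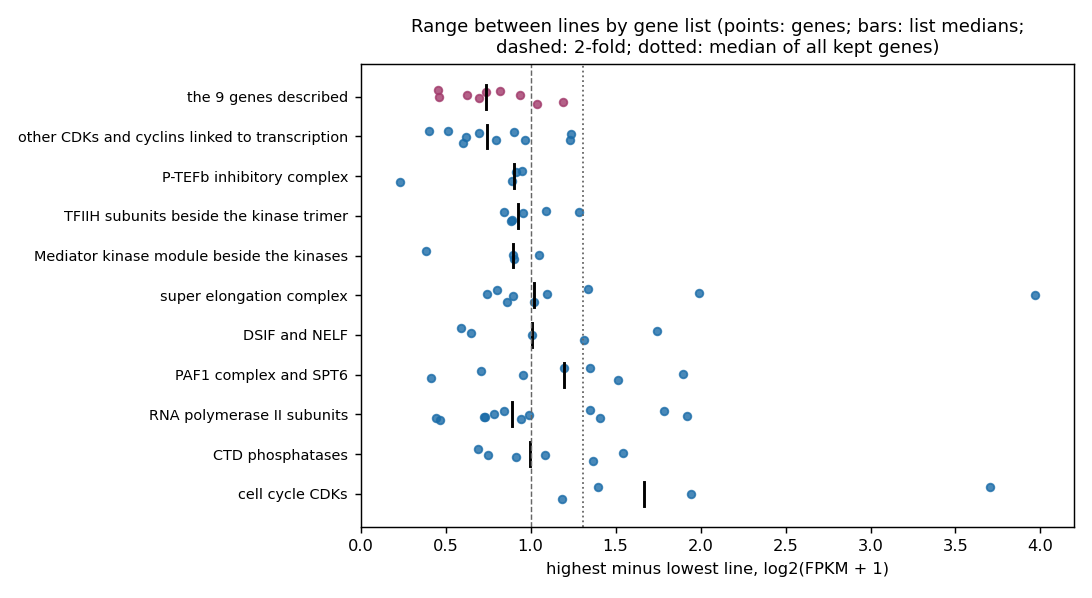
Difference between the highest and lowest line on the log2(FPKM + 1) scale (x axis) for each measured gene of the 9 and of each list with more than 1 measured gene (y axis), as points, with list medians as black bars. The 9 genes have a median of 0.74 and the cell cycle CDKs one of 1.67, beside 1.31 for all kept genes (dotted).

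Seen by line, SKN held the highest value for 5 of the 9 genes and SKLMS1 the lowest for 4. The median difference of the 9 from the other lines was 0.21 (RKN), -0.28 (SKLMS1), 0.25 (SKN) and -0.28 (SKUT1), beside -0.04, -0.06, -0.05 and -0.03 over all kept genes. RKN was above the mean of the other lines for 6 genes, SKN for 7, SKLMS1 for 2 and SKUT1 for 3. No shares of kept genes are given for these counts or for those of the highest and lowest line. They are therefore not compared with all genes. Rescaling to TPM moved the median of all genes to 0.24 in RKN and -0.31 in SKUT1, and that of the 9 to 0.50 and -0.61, so that the 9 stayed on the same side of it. Some genes overlap others in RefSeq (CDK7 with CCDC125, BRD3 with BRD3OS, CDK19 with AMD1), and the strand setting of the counting is unknown here, so reads of such neighbours may be included.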

How the data were processed

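RNA of 4 untreated leiomyosarcoma lines, 1 library each, was sequenced from TruSeq Stranded mRNA libraries, per the labels' protocols. STAR, Cufflinks and hg19 appear in the submitters' processing notes, with versions, annotation and strand setting not given in the sources used here. FPKM values per gene symbol were deposited by the authors in 1 table of 23610 rows. Left out were 28 rows whose symbol had become a date number and 5 rows with 8 spreadsheet errors.

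Values were compared as log2(FPKM + 1), with a 2-fold rule (1.5-fold as an alternative), for genes whose FPKM reached 1 in some line. With 1 library per line no test was possible. Depth was estimated from low values of genes with a single GENCODE transcript, for an assumed fragment length of 200 bases. With the totals, 59.6 to 61.7% of these values came within 0.1 of whole reads. As the totals were fitted to these values and the annotation may differ from the authors', they are approximate and no counts were recovered. Promoters and chromosomes came from RefSeq GRCh38.p14.

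Named genes were all 9 members, from each list up to 4 genes of widest range among those 2-fold from the mean of the other lines and the 2 of narrowest range, and for 3 members the 3 most alike genes. Direct partners of the members (CCNH, MNAT1, CCNC, CCNK, HEXIM1) and genes listed at or near 0 (BRD2, BRDT, NELFE, GTF2H4, MED12L) fall outside this rule and were added after their values were seen. CCNC counts in 2 lists. A gene that the rule names is not reported here. The members and lists were chosen with earlier results of these data known. Alternatives were pseudocounts of 0.1 and 5, TPM, median-of-ratios and quantile scaling, other filters, and leaving out a line. Code was tested on simulated data. Python 3.11.15, pandas 2.3.3 and numpy 2.4.6 were used.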

Additional observations from a re-analysis of the deposited data

How the results depend on the processing

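No paired analysis was possible because each line has 1 library. Tolerances were a factor of 1.5 for counts and 0.25 on the log2 scale for values, as no replicate spread exists. Of the recomputed main values, 224 stayed within them and 36 did not. The count of members with a 2-fold range (2) became 7 under the 1.5-fold rule (89.4% of all genes), 5 on the TPM scale (74.9%), 0 with a pseudocount of 5 and 1 without RKN, SKLMS1, SKN or SKUT1. The share of all genes with such a range (67.2%) was 39.1% with no filter and 39.96% with a pseudocount of 5. Members away from the mean of the other lines numbered 1 lower in SKLMS1 with a pseudocount of 0.1, without SKN and without SKUT1 (0 as reported), and 1 lower in SKUT1 on the TPM scale. At 1.5-fold there were 1 higher in RKN, 1 higher and 1 lower in SKLMS1, 2 higher in SKN, and 1 higher and 1 lower in SKUT1. The median of members on the TPM scale was 0.50 in RKN and -0.61 in SKUT1. At 1.5-fold the members apart were 2 for RKN and SKLMS1, 1 for RKN and SKN, 4 for RKN and SKUT1, and 3 for each remaining pair. On the TPM scale they were 3 for RKN and SKUT1 and 1 for SKLMS1 and SKUT1, and with a pseudocount of 5 they were 0 for RKN and SKLMS1 and for SKN and SKUT1. For these counts by line and by pair, the shares of kept genes at the same settings are not given. The counts are therefore not compared with all genes. The log2 balance of CDK8 over CDK19 in SKUT1 was 0.68 with a pseudocount of 5. List genes with a 2-fold range (28 of 67) were 59 at 1.5-fold (89.4% of all genes) and 18 without SKUT1 (46.3%). The order of CDK7, CCNH and MNAT1 as deposited was kept by 0 of the 3 on the TPM scale and after quantile normalization, alternatives added after the data were seen. For the remaining changes the cause was not tested, apart from the lower rule and the added constant, which act by construction. Depth limits differences of a few percent, such as those of CDK12 in SKN and SKUT1.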

Other observations

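BRD2 was not the only gene of the transcription machinery listed at 0. The NELF subunit gene NELFE and the TFIIH subunit gene GTF2H4 were listed at 0 in all 4 lines, and BRD2 in 3. All 3 lie on chromosome 6 in RefSeq, and the protein-coding genes of the table that stand between GTF2H4 and BRD2 in its order, both included, number 85. Of these, 76 (89.4%) were listed at 0 in 3 or more lines, against 18.6% of 17331 other protein-coding genes. The members described here lie outside this stretch, and none had a value of 0.

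The neighbours of CDK12 were examined as well, since its low value in SKLMS1 was the widest departure among the 9. Of the 20 kept genes nearest to it in RefSeq order, 15 were below the mean of the other lines in SKLMS1, with a median difference of -0.26, beside -0.98 for CDK12 itself. Of the 20 nearest to MNAT1, all 20 were below that mean in RKN, with a median of -1.08, and for CCNH 17 of 20 were, with a median of -0.95. Around CDK7, on the same chromosome as CCNH, 10 of 20 were below it in RKN, with a median of 0.03. No share of all kept genes below that mean is given for these counts. Over all kept genes the median difference was -0.06 in SKLMS1 and -0.04 in RKN. The chromosome median was -0.20 in SKLMS1 for CDK12. In RKN it was -0.41 for CDK7 and CCNH and -0.37 for MNAT1. These neighbourhoods were chosen after the values were seen.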
